A study of Danio rerio with 28 samples.

Results

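The smooth muscle contractile genes followed here are 6 genes taken by their Ensembl identifiers from the 32520 genes listed in the count and TPM tables of a zebrafish heart regeneration study. They are acta2 (ENSDARG00000045180), smooth muscle alpha actin; MYH11 (ENSDARG00000009782), the smooth muscle myosin heavy chain; MYLK (ENSDARG00000034801), the myosin light chain kinase; 2 identifiers that both carry the symbol TAGLN (ENSDARG00000045408 and ENSDARG00000033466), annotated as transgelin, an actin-binding protein; and elnb (ENSDARG00000069017), an elastin. The symbols are those paired with the identifiers in a gene name table, and each gene below means that identifier only, because MYH11 and MYLK each have a second identifier that was not a member.

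Smooth muscle contracts when calcium and calmodulin activate myosin light chain kinase, which phosphorylates the regulatory light chain of myosin and lets the myosin heavy chain pull on filaments of smooth muscle actin. Transgelin binds and bundles those filaments. Elastin is secreted and cross-linked by lysyl oxidases into the elastic fibres of arteries and of the bulbus arteriosus, the outflow chamber of the fish heart, whose wall is rich in smooth muscle. Within the ventricle, smooth muscle cells belong mainly to the coronary vessels, and smooth muscle actin is also a widely used marker of activated fibroblasts.

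The study removed about 20% of the ventricular apex of adult zebrafish aged 4 to 6 months and collected the injured zone at 8 hours post injury (hpi) and at 1, 3, 7 and 15 days post injury (dpi), together with uninjured apex. Fish were wild type (WT) or carried a CRISPR frameshift insertion in thraa, which encodes thyroid hormone receptor alpha a, truncating its ligand-binding domain. The time course used thraa+/- fish, a genotype given in the series description and not in the sample labels, which read only thraa KO, and the mutant fish came from a single line. A separate set of uninjured hearts compared WT with fish labelled THRAA hom, here thraa-/-. Each of the 12 time-course groups and each of the 2 heart groups had 2 libraries labelled as biological replicates, and each time-course library pooled the apex or injured tissue of at least 5 ventricles. The heart samples are titled as entire hearts although the shared protocol speaks of ventricles, which bears on genes of the outflow tract. Strain and sex were not given in the sources used here.

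The 24 time-course libraries held 13692204 to 18775025 estimated counts and the 4 heart libraries 13656671 to 16532401. The 2 libraries of thraa+/- at 8 hpi differed from each other more than any other time-course pair, by a chi-square per degree of freedom of 21.9 against 1.87 to 8.07. All 6 genes passed the expression filter in both tables, where 17837 and 15793 genes were tested. elnb passed it in the time course through the groups in which it was high, with 0 to 9 counts in the libraries of uninjured, 8 hpi and 1 dpi apex. Its calls of those high groups against the low ones are thus not independent of the filter, and the counts of called tests below include them. The 6 genes and the gene lists were chosen with earlier results of these data known. Counts set beside the share of all genes are thus description and not a test. Levels are given as CPM, counts scaled to a common library total after trimmed-mean (TMM) normalization, and levels of different genes are set side by side only as TPM, which scales counts by transcript length. A gene was called where its adjusted p was under 0.05 and its log2 fold change 1 or more in either direction, or, for the whole hearts, where it changed 1.5-fold or more. Adjusted p-values are from edgeR's quasi-likelihood test, two-sided, with Benjamini-Hochberg adjustment over all genes tested. The SE given with an edgeR log2 fold change was derived from that test, as the absolute change divided by the square root of its F statistic.

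The scale on which a change is read matters for these tissues. Scaling by the total of each library in place of TMM moved the comparisons after injury upward: the median of all genes against uninjured apex lay 0.413 to 0.895 higher on the log2 scale over the 10 comparisons, while the median under TMM lay between 0 and 0.218. All folds below are under TMM and are thus relative to the bulk of the genes. The scalings differ by 1 factor for each library and so move all genes of a comparison together. Relative to the median of all genes, the changes of the 6 genes differed between the scalings by −0.0184 to 0.0214 over all 180 tests. In bulk tissue, fewer cells of a type and less RNA per cell cannot be told apart.

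After resection in WT apex, acta2, MYLK and TAGLN ENSDARG00000045408 fell within hours and were not called lower at 3 or 7 dpi, while TAGLN ENSDARG00000045408 rose above the uninjured level at 3 and 7 dpi and elnb at 7 and 15 dpi. At 15 dpi MYH11, MYLK and TAGLN ENSDARG00000033466 were below the uninjured apex. Over the 5 times, 12 of the 30 tests of these genes were called, 4 higher and 8 lower, where 29.2% of tests over all genes were called, 17.5% higher and 11.7% lower. At 8 hpi 3 of the 6 were called lower beside 12.5% of all genes, at 1 dpi 2 of 6 lower beside 10.8%, at 3 dpi 1 of 6 higher beside 20.8%, at 7 dpi 2 of 6 higher beside 24.2%, and at 15 dpi 1 of 6 higher beside 11.3% and 3 of 6 lower beside 7.36%. With total-count scaling the same 30 tests gave 11 higher and 4 lower, so the split between directions depended on the scaling. The share of all genes called under that scaling is not given here. The median of all genes under it ran from 0.589 at 15 dpi to 1.064 at 7 dpi, the latter past the fold threshold of 1.

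acta2, the actin of the contractile filament, measured 95.5 and 98.1 CPM in the 2 libraries of uninjured WT apex, 23.3 and 26.7 CPM at 8 hpi, 21.8 and 25.6 CPM at 1 dpi, 115 and 110 CPM at 3 dpi, 117 and 122 CPM at 7 dpi, and 68.1 and 65.4 CPM at 15 dpi. Both early times lay below every other WT library. The fall was 3.88-fold at 8 hpi (log2 fold change −1.95, SE 0.091, adjusted p = 4.45e-22) and 4.07-fold at 1 dpi (−2.03, SE 0.090, adjusted p = 8.94e-23). From 1 to 3 dpi acta2 rose 4.74-fold (log2 fold change 2.25, adjusted p = 3.28e-24), and at 7 dpi it stood only 0.30 above uninjured on the log2 scale (adjusted p = 0.00121), under the fold threshold. With total-count scaling the difference at 7 dpi came to 1.15 and was called.

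MYLK, the kinase that switches the motor on, measured 33.7 and 32.0 CPM in uninjured WT apex, 10.8 and 9.48 CPM at 8 hpi, 13.0 and 14.1 CPM at 1 dpi, 26.0 and 24.4 CPM at 3 dpi, 36.6 and 36.6 CPM at 7 dpi, and 15.0 and 15.8 CPM at 15 dpi. Under TMM it thus had a low early level, a return to the uninjured level at 7 dpi and a second low at 15 dpi. Its log2 fold change at 7 dpi was 0.15 under TMM and 1.00 with total-count scaling. The fall was 3.24-fold at 8 hpi (log2 fold change −1.70, SE 0.126, adjusted p = 2.46e-15), 2.43-fold at 1 dpi (−1.28, adjusted p = 2.52e-12) and 2.14-fold at 15 dpi (−1.09, adjusted p = 1.87e-10). At 3 dpi the log2 fold change was −0.38 and not called, and its sign turned under other scalings. The calls at 1 and 15 dpi were lost with total-count scaling, at −0.69 and −0.58.

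MYH11, the motor itself, spanned 2.76-fold between its lowest and highest WT groups, where MYLK spanned 3.61-fold. It measured 53.2 and 57.0 CPM in uninjured WT apex, 38.9 and 32.0 CPM at 8 hpi, 36.7 and 36.5 CPM at 1 dpi, 60.4 and 59.7 CPM at 3 dpi, 63.9 and 69.2 CPM at 7 dpi, and 22.3 and 25.9 CPM at 15 dpi. The lowest libraries were thus those of 15 dpi, not those of the first day. At 7 dpi the log2 fold change of MYH11 was 0.27 under TMM and 1.12 with total-count scaling. Its early difference did not reach the fold threshold (log2 fold change −0.64 at 8 hpi, adjusted p = 1.23e-06), and at 15 dpi it fell 2.29-fold (−1.19, SE 0.105, adjusted p = 7.68e-13), a call lost with total-count scaling at −0.68.

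The 2 transgelin identifiers followed different courses. TAGLN ENSDARG00000045408 measured 77.4 and 81.5 CPM in uninjured WT apex, 25.3 and 27.5 CPM at 8 hpi, 40.9 and 44.7 CPM at 1 dpi, 214 and 206 CPM at 3 dpi, 332 and 327 CPM at 7 dpi, and 145 and 127 CPM at 15 dpi. From its lowest to its highest WT group it spanned 12.5-fold, against 5.04-fold for acta2. It fell 3.01-fold at 8 hpi (log2 fold change −1.59, SE 0.136, adjusted p = 5.32e-09) and rose above uninjured 2.64-fold at 3 dpi (1.40, adjusted p = 4.04e-09) and 4.15-fold at 7 dpi (2.05, SE 0.122, adjusted p = 1.16e-11).

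TAGLN ENSDARG00000033466 peaked earlier and over a smaller range. It measured 286 and 269 CPM in uninjured WT apex, 161 and 168 CPM at 8 hpi, 256 and 268 CPM at 1 dpi, 333 and 335 CPM at 3 dpi, 150 and 138 CPM at 7 dpi, and 135 and 134 CPM at 15 dpi. Its highest WT libraries were those of 3 dpi, where the other 5 genes were still short of their 7 dpi level, and it was low at 7 dpi, where they were highest. It fell 2.32-fold from 3 to 7 dpi (log2 fold change −1.21, SE 0.067, adjusted p = 3.74e-19) and stood 2.07-fold below uninjured at 15 dpi (−1.05, adjusted p = 6.46e-17). The difference at 7 dpi, −0.95, missed the fold threshold, and the call at 15 dpi was lost with total-count scaling at −0.54.

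elnb, the elastic fibre gene, was almost absent from uninjured WT apex, with 6 and 0 counts in the 2 libraries, and from 8 hpi, with 4 and 0 counts, and 1 dpi, with 0 and 2 counts. At 3 dpi it had 17 and 9 counts, at 7 dpi 505 and 445 counts (26.6 and 26.0 CPM), and at 15 dpi 92 and 87 counts (5.48 and 5.41 CPM). Every library of 7 dpi held more than every library of 15 dpi, and those more than any library of the earlier groups. The ratio of 7 dpi to uninjured apex was 85.9 by counts (95% interval 39.3 to 235, counting error only; fitted log2 fold change 6.39, SE 0.436, adjusted p = 3.82e-16), and that of 15 dpi to uninjured was 17.8 (95% interval 8.02 to 49.1; adjusted p = 1.16e-08). The fitted value is set by few counts in the uninjured libraries: leaving each library out in turn moved it between 5.41 and 11.70, the highest without WT uninjured replicate 1, where the remaining library had 0 counts. The SE and adjusted p of the full fit do not cover that spread.

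**Figure D1:**
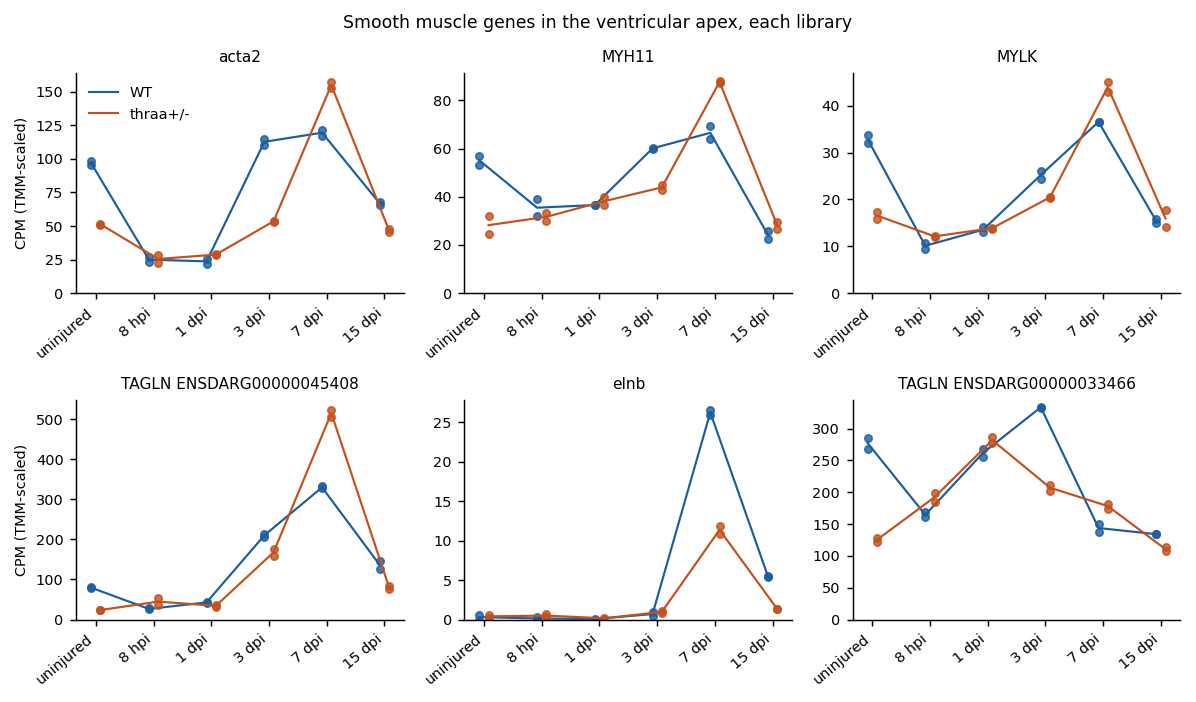
Level of each of the 6 genes in every time-course library, in TMM-scaled CPM on a linear axis from 0 that differs between panels, at each time after resection, with points for the 2 libraries of each group and lines through the group means for WT and thraa+/-. elnb has 0 to 9 counts in each library of uninjured, 8 hpi and 1 dpi apex and reaches 26.6 and 26.0 CPM at 7 dpi in WT, while TAGLN ENSDARG00000033466 is highest at 3 dpi in WT.

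In thraa+/- apex 5 of the 6 genes rose above the uninjured level of that genotype at 7 dpi, namely acta2, MYH11, MYLK, TAGLN ENSDARG00000045408 and elnb. Of the 6 genes acta2 alone was called lower at any time, at 8 hpi, and at 15 dpi elnb and TAGLN ENSDARG00000045408 were called higher. Over the 5 times, 10 of 30 tests were called, 9 higher and 1 lower, where 28.3% of tests over all genes were called, 16.8% higher and 11.5% lower, and at 7 dpi the 5 of 6 called higher stood beside 22.4% of all genes. At 8 hpi 1 of 6 was called lower beside 12.9% of all genes, at 1 dpi 1 of 6 higher beside 16.8%, at 3 dpi 1 of 6 higher beside 19.2%, and at 15 dpi 2 of 6 higher beside 7.88%. The median log2 fold change of the 6 genes at 7 dpi was 1.61, beside 0.136 over all genes. With total-count scaling the family gave 18 higher and 0 lower, and the share of all genes called under it is not given here. The median of all genes then ran from 0.448 at 15 dpi to 1.031 at 7 dpi. Under that scaling acta2, MYH11 and MYLK also reached the fold threshold in WT at 7 dpi, at 1.15, 1.12 and 1.00. Their values in thraa+/- were then 2.49, 2.53 and 2.30. The medians over all genes were 1.06 in WT and 1.03 in thraa+/-.

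acta2 measured 50.9 and 51.8 CPM in uninjured thraa+/- apex, 22.3 and 28.7 CPM at 8 hpi, 28.5 and 29.0 CPM at 1 dpi, 53.8 and 53.4 CPM at 3 dpi, 157 and 153 CPM at 7 dpi, and 48.2 and 45.4 CPM at 15 dpi. Only the 7 dpi libraries stood above the WT uninjured libraries. It rose 3.02-fold at 7 dpi (log2 fold change 1.59, SE 0.084, adjusted p = 1.60e-20), and 2.89-fold from 3 to 7 dpi (1.53, adjusted p = 8.74e-20), then fell 3.31-fold from 7 to 15 dpi (−1.73, adjusted p = 1.33e-21). Its fall at 8 hpi (−1.01, adjusted p = 2.05e-12) lay at the fold threshold and the call was lost without thraa+/- 8 hpi replicate 1 (−0.83), without thraa+/- uninjured replicate 1 or 2 (−0.99 and −0.96), without WT 8 hpi replicate 1 or either uninjured WT library, which share the fit (each −0.97). It was also lost with total-count scaling (−0.54), limma on log2(TPM + 1) and log2(TPM + 0.1) (−0.64 and −0.67), a fit of only the compared groups (−0.99), no filter beyond 1 count (−0.95) and at least 10 counts in every library (−0.94).

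MYH11 measured 32.1 and 24.4 CPM in uninjured thraa+/- apex, 33.4 and 30.0 CPM at 8 hpi, 36.5 and 39.8 CPM at 1 dpi, 45.1 and 42.8 CPM at 3 dpi, 87.3 and 88.0 CPM at 7 dpi, and 26.5 and 29.7 CPM at 15 dpi. The only libraries that stood clear of the rest were those of 7 dpi, and the early libraries did not lie below the uninjured range. The rise was 3.11-fold (log2 fold change 1.64, SE 0.103, adjusted p = 6.50e-18). MYLK measured 15.9 and 17.3 CPM in uninjured thraa+/- apex, 12.2 and 12.1 CPM at 8 hpi, 13.8 and 14.0 CPM at 1 dpi, 20.6 and 20.4 CPM at 3 dpi, 42.8 and 45.2 CPM at 7 dpi, and 17.9 and 14.0 CPM at 15 dpi. It rose 2.65-fold at 7 dpi (1.41, SE 0.117, adjusted p = 4.59e-14) and then fell 2.74-fold to 15 dpi, and MYH11 fell 3.13-fold over the same step.

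TAGLN ENSDARG00000045408 had the largest range of the 5 genes that were well counted throughout, 21.8-fold between the lowest and highest thraa+/- groups. It measured 22.7 and 24.5 CPM in uninjured thraa+/- apex, 35.5 and 53.9 CPM at 8 hpi, 32.1 and 36.1 CPM at 1 dpi, 159 and 177 CPM at 3 dpi, 506 and 524 CPM at 7 dpi, and 76.4 and 84.3 CPM at 15 dpi. Here the uninjured libraries were the lowest of the course, whereas in WT they lay above those of 8 hpi and 1 dpi. It rose 7.11-fold at 3 dpi (log2 fold change 2.83, adjusted p = 4.70e-13), 21.8-fold at 7 dpi (4.45, SE 0.140, adjusted p = 2.84e-16) and stood 3.40-fold above uninjured at 15 dpi (1.76, adjusted p = 4.49e-09).

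TAGLN ENSDARG00000033466 measured 122 and 129 CPM in uninjured thraa+/- apex, 186 and 199 CPM at 8 hpi, 287 and 277 CPM at 1 dpi, 202 and 212 CPM at 3 dpi, 174 and 182 CPM at 7 dpi, and 108 and 113 CPM at 15 dpi. Its peak was thus at 1 dpi in thraa+/- and at 3 dpi in WT. The rise at 1 dpi was 2.25-fold (log2 fold change 1.17, SE 0.069, adjusted p = 7.41e-19), and at 7 dpi the value was 0.51 and not called.

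elnb had 2 and 6 counts in uninjured thraa+/- apex, 5 and 9 counts at 8 hpi, 1 and 4 counts at 1 dpi, 17 and 20 counts at 3 dpi, 233 and 209 counts at 7 dpi (11.9 and 10.8 CPM), and 22 and 17 counts at 15 dpi. As in WT, the 7 dpi libraries stood far above all others. The ratio of 7 dpi to uninjured was 28.4 by counts (95% interval 14.3 to 66.1, counting error only; fitted log2 fold change 4.80, SE 0.442, adjusted p = 2.40e-12). At 15 dpi the ratio was 3.28 (95% interval 1.51 to 8.12; adjusted p = 0.0299), and this call was lost without thraa+/- 15 dpi replicate 1 (adjusted p = 0.0883), without replicate 2 of that group (adjusted p = 0.0753) and without thraa+/- uninjured replicate 1 (adjusted p = 0.252).

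**Figure D2:**
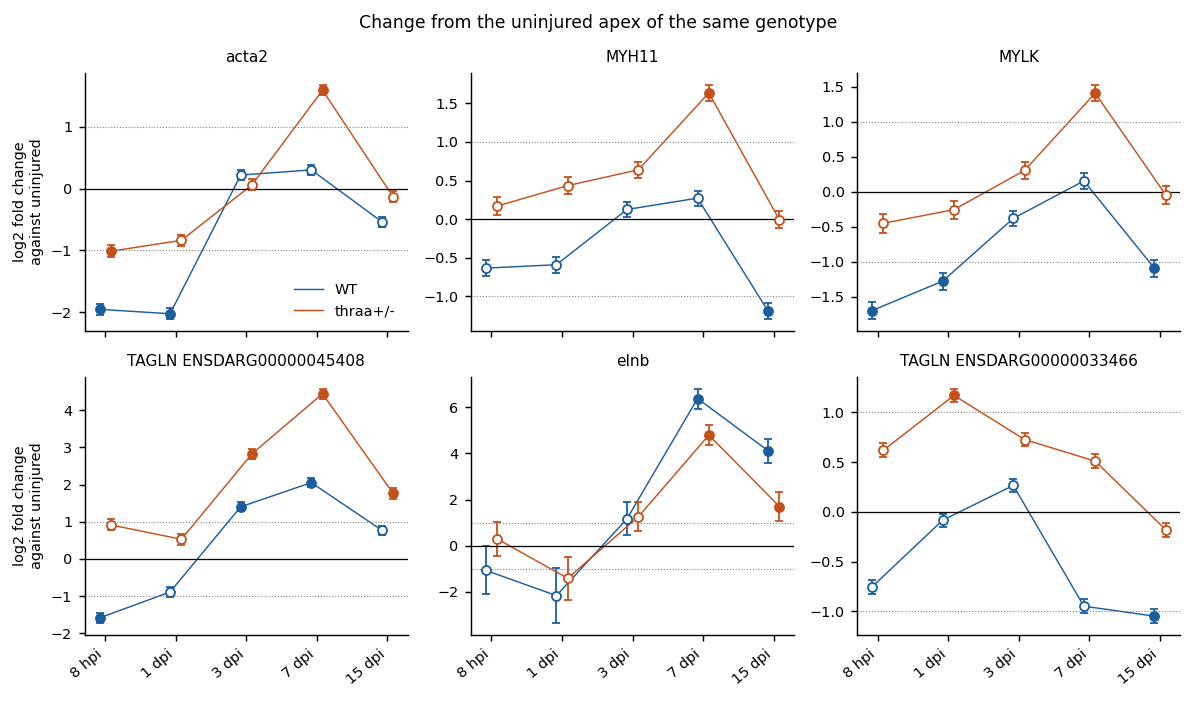
Log2 fold change of each of the 6 genes against the uninjured apex of the same genotype, at 8 hpi and 1, 3, 7 and 15 dpi, for WT and thraa+/-. Bars are 1 SE, derived from the F statistic of the edgeR test. Points are filled where called and open where not, and dotted lines mark the fold threshold of 1 in each direction. At 7 dpi acta2 lies at 0.30 in WT and 1.59 in thraa+/-, and TAGLN ENSDARG00000045408 at 2.05 and 4.45.

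Between neighbouring times 9 of 24 tests were called in WT, 4 higher and 5 lower, beside 19.1% of tests over all genes, 9.31% higher and 9.8% lower. In thraa+/- 11 of 24 were called, 6 higher and 5 lower, beside 15.9%, 7.83% higher and 8.12% lower. From 1 to 3 dpi acta2, elnb and TAGLN ENSDARG00000045408 rose in WT, 3 of 6 beside 7.64% of all genes, and elnb and TAGLN ENSDARG00000045408 rose in thraa+/-, 2 of 6 beside 7.19%. TAGLN ENSDARG00000045408 rose 4.90-fold in WT and 4.93-fold in thraa+/-. The elnb rise rested on 26 counts at 3 dpi and 2 counts at 1 dpi in WT, a ratio of 11.3 (95% interval 2.82 to 98.0), and the call was lost without WT 1 dpi replicate 1 (adjusted p = 0.0534) or without WT 3 dpi replicate 1 (adjusted p = 0.0536). In thraa+/- it rested on 37 and 5 counts, a ratio of 6.68 (95% interval 2.62 to 21.8), and was lost without thraa+/- 1 dpi replicate 1 (adjusted p = 0.0766).

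From 3 to 7 dpi elnb rose in both genotypes, by a ratio of 37.9 in WT (95% interval 25.7 to 58.4) and 11.8 in thraa+/- (95% interval 8.44 to 17.0). In WT it was the only one of the 6 called higher, where 13.3% of all genes were, and TAGLN ENSDARG00000033466 was called lower, where 9.92% were. In thraa+/- acta2, MYLK and TAGLN ENSDARG00000045408 rose as well, 4 of 6 beside 9.16% of all genes, and MYH11 missed the fold threshold at 0.997. From 7 to 15 dpi the direction turned. In WT elnb, MYH11, MYLK and TAGLN ENSDARG00000045408 fell 4.82-, 2.76-, 2.37- and 2.43-fold, 4 of 6 beside 15.5% of all genes. In thraa+/- acta2 fell too, 5 of 6 beside 16.5%, with elnb falling 8.60-fold and TAGLN ENSDARG00000045408 6.42-fold. From 8 hpi to 1 dpi none of the 6 was called in either genotype by edgeR at an adjusted p under 0.05 and the fold threshold, where 19.7% of all genes in WT and 12.3% in thraa+/- were. At an unadjusted p under 0.05 there were 3 of 6 in WT and 4 of 6 in thraa+/-, and DESeq2 called 0.

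Set directly against WT, uninjured thraa+/- apex had 2 of the 6 genes called lower, both transgelin identifiers, and acta2, MYH11 and MYLK lay just short of the fold threshold. For these 5 genes both thraa+/- libraries lay below both WT libraries, a separation that was not counted over all genes. At 7 dpi none of these 5 was called, and elnb was called lower at 7 and 15 dpi. Of the 36 tests at 6 times 5 were called, all lower in thraa+/-, where 8.71% of tests over all genes were called, 3.76% lower.

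In uninjured apex TAGLN ENSDARG00000045408 was 3.36-fold lower in thraa+/- (log2 fold change −1.75, SE 0.144, adjusted p = 8.75e-09) and TAGLN ENSDARG00000033466 2.22-fold lower (−1.15, SE 0.070, adjusted p = 1.61e-17), 2 of 6 called lower beside 5.79% of all genes. The values of the uncalled genes were −0.92 for acta2 (adjusted p = 1.68e-11), −0.97 for MYH11 (adjusted p = 1.40e-09) and −0.99 for MYLK (adjusted p = 1.67e-08), and MYH11 and MYLK were called with DESeq2 (−1.03 and −1.05). The median of the 6 genes was −0.976, beside 0 over all genes. The summed level of 10 mural cell markers, genes of pericytes and vascular smooth muscle, was 790 and 792 CPM in uninjured WT and 790 and 778 CPM in uninjured thraa+/-, but 3 of those 10 were called lower in thraa+/-. The summed level of 8 fibroblast and epicardium markers was 934 and 954 CPM in WT and 638 and 603 CPM in thraa+/-, with 1 of 8 called lower. Epithelial markers summed to 516 and 497 CPM in WT and 161 and 144 CPM in thraa+/-, with 1 of 4 called lower, and leukocyte markers to 393 and 389 CPM and 234 and 241 CPM, with 1 of 5 called lower. The sums of skeletal muscle and erythrocyte markers were lower in uninjured thraa+/- too, with 1 of 7 and 1 of 3 called lower. Cardiomyocyte markers summed to 76060 and 73110 CPM in WT and 67230 and 66190 CPM in thraa+/-. Endothelial markers went the other way, with 946.5 and 960.3 CPM in WT and 992 and 969.5 CPM in thraa+/-. The part of these cell types in the difference was not tested.

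At 8 hpi and 1 dpi none of the 6 differed by the thresholds in edgeR, where 10.5% and 7.59% of all genes did. At an unadjusted p under 0.05 there were 3 of 6 and 2 of 6, and DESeq2 called 0. At 3 dpi acta2 was 2.10-fold lower in thraa+/- (log2 fold change −1.07, SE 0.080, adjusted p = 1.84e-14), the only call of the 6 beside 3.34% of all genes called lower, with TAGLN ENSDARG00000033466 at −0.69. At 7 dpi the values of acta2, MYH11, MYLK and the 2 transgelin identifiers lay between 0.27 and 0.64, none called. At that time 6.25% of all genes were called. For each of these 5 genes both thraa+/- libraries of 7 dpi lay above both WT libraries, a separation that was not counted over all genes.

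elnb went the other way. At 7 dpi it was 2.31-fold lower in thraa+/- (log2 fold change −1.21, SE 0.240, adjusted p = 0.000184), beside 3.31% of all genes called lower. At 15 dpi it was 4.12-fold lower (−2.04, SE 0.348, adjusted p = 1.59e-05), beside 3.74%, with 39 counts in the 2 thraa+/- libraries and 179 in the 2 WT libraries. At the same time acta2 (−0.51) and TAGLN ENSDARG00000045408 (−0.76) were not called. Both elnb calls were lost with limma on log2(TPM + 1), a pseudocount that lies above most of its TPM values, at −0.87 and −0.60.

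**Figure D3:**
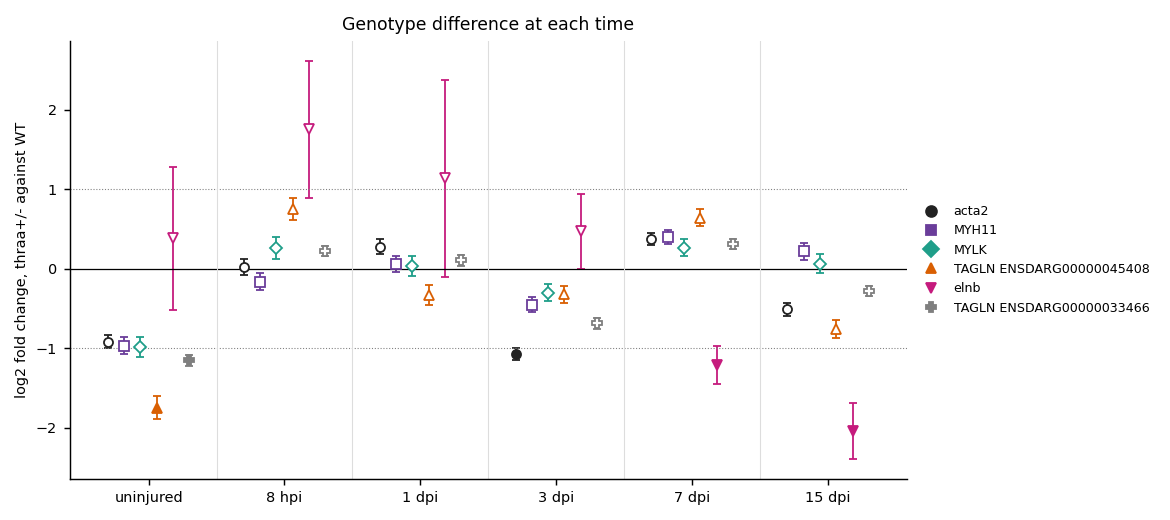
Log2 fold change of thraa+/- against WT for each of the 6 genes in uninjured apex and at 5 times after resection, with bars of 1 SE, filled points where called, open points where not, and dotted lines at the fold threshold of 1 in each direction. In uninjured apex 5 genes lie between −0.92 and −1.75, and at 7 and 15 dpi elnb lies at −1.21 and −2.04.

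The response to injury itself was compared between genotypes as the change from uninjured in thraa+/- minus that in WT. This difference was called in 16 of 30 tests by edgeR, all of them higher in thraa+/-, beside 11.1% of tests over all genes, 5.93% higher. It uses the same uninjured libraries at every time, in which thraa+/- was lower for 5 of the 6 genes, so the 5 times are not separate evidence. For these 5 genes the direct difference between genotypes lay between −0.92 and −1.75 in uninjured apex. It lay between −0.33 and 0.27 at 1 dpi and between 0.27 and 0.64 at 7 dpi, with none of the 5 called at either time. At 8 hpi 3 of 6 were called higher beside 8.11% of all genes, at 1 dpi 5 of 6 beside 5.81%, at 3 dpi 1 of 6 beside 4.67%, at 7 dpi 5 of 6 beside 6.39%, and at 15 dpi 2 of 6 beside 4.67%.

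At 7 dpi the difference in response was largest for TAGLN ENSDARG00000045408, 2.39 on the log2 scale (SE 0.182, adjusted p = 3.79e-09), and it came to 1.46 for TAGLN ENSDARG00000033466 (adjusted p = 4.62e-16), 1.36 for MYH11 (adjusted p = 2.44e-10), 1.29 for acta2 (adjusted p = 5.18e-12) and 1.25 for MYLK (adjusted p = 3.74e-08). At 8 hpi it was 2.50 for TAGLN ENSDARG00000045408 (adjusted p = 6.60e-09), whose level fell in WT and had a log2 fold change of 0.92 in thraa+/-. The difference for elnb had the other sign, −1.59 at 7 dpi (SE 0.948, adjusted p = 0.232) and −2.42 at 15 dpi (SE 0.994, adjusted p = 0.0797), and was not called by edgeR. It was called lower at 15 dpi with DESeq2 (−2.40, adjusted p = 0.042) and at both times with limma on log2(TPM + 0.1), at −1.25 and −1.79. Without WT uninjured replicate 1, where the remaining library had 0 counts, edgeR called it lower at both times, and without either thraa+/- 8 hpi library at 15 dpi (adjusted p = 0.0497 and 0.0498), while without WT uninjured replicate 2 the values were −0.60 and −1.44 and not called. The smallest called values were lost without 1 library. MYH11 at 1 dpi came to 0.97 without thraa+/- 1 dpi replicate 2 and 0.91 without thraa+/- uninjured replicate 2. MYLK at 1 dpi came to 0.96 without WT 1 dpi replicate 1, and at 15 dpi to 0.85 without thraa+/- 15 dpi replicate 1.

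The uninjured whole hearts carried much more of 4 of the 6 transcripts than any apex library, judged in TPM. acta2 lay at 455 to 789 TPM in the 4 heart libraries and at 13.5 to 121 TPM in the 24 apex libraries. MYH11 lay at 48.3 to 61.2 TPM in the hearts and at 2.23 to 13.9 TPM in the apex, and MYLK at 37.0 to 52.9 TPM and 2.66 to 15.0 TPM. elnb lay at 49.8 to 97.4 TPM in the hearts and at 0 to 4.60 TPM in the apex. For these 4 genes all 24 apex libraries were below all 4 hearts. The transgelin identifiers did not follow this. TAGLN ENSDARG00000045408 lay at 197 to 428 TPM in the hearts and at 25.8 to 1129 TPM in the apex, with 14 of 24 apex libraries below every heart, and TAGLN ENSDARG00000033466 lay at 107 to 139 TPM in the hearts and 85.1 to 392 TPM in the apex, with 2 of 24 below. The 2 tables were scaled apart and hold different tissue, so no test was made between them. How many of all genes were separated between apex and hearts was not counted.

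Between genes, acta2 was the most abundant of the 6 in the hearts and a transgelin identifier was the most abundant in every apex group. In uninjured WT apex TAGLN ENSDARG00000033466 stood at 209 and 201 TPM and acta2 at 41.7 and 46.5 TPM. At 7 dpi in thraa+/- TAGLN ENSDARG00000045408 stood at 1117 and 1129 TPM, acta2 at 121 and 115 TPM, MYH11 at 13.9 and 13.7 TPM, and elnb at 2.18 and 1.93 TPM. The summed level of the mural cell markers was 446.6 and 440.1 TPM in WT hearts and 301.4 and 316.9 TPM in thraa-/- hearts. The apex libraries ranged from 137.8 to 231.2 TPM.

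**Figure D4:**
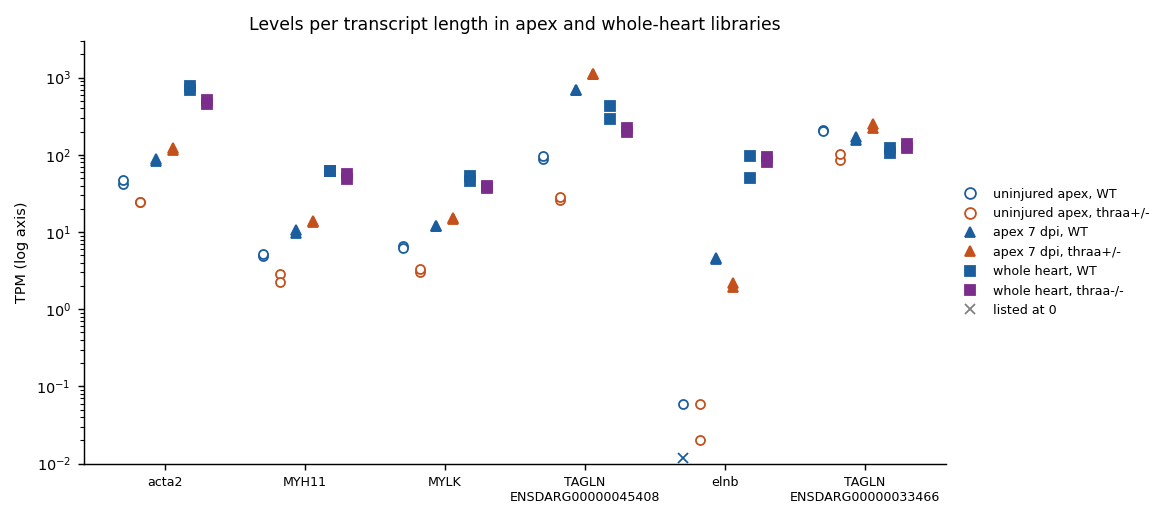
TPM of each of the 6 genes on a log axis in the libraries of uninjured apex and apex at 7 dpi and in the 4 uninjured whole-heart libraries, 1 point per library, with a cross near the axis for a library listed at 0. For acta2, MYH11, MYLK and elnb the apex points lie below the heart points (elnb at most 4.60 TPM against at least 49.8 TPM), and for TAGLN ENSDARG00000045408 the 7 dpi points lie above them.

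In whole hearts, thraa-/- and WT did not differ by the thresholds for any of the 6 genes in edgeR, where 19.2% of all genes were called. At an unadjusted p under 0.05 there were 3 of 6, and DESeq2 called 0. acta2 measured 1133 and 995 CPM in WT and 791 and 919 CPM in thraa-/-, a log2 fold change of −0.32 (SE 0.109, adjusted p = 0.0666), with both thraa-/- hearts below both WT hearts. MYH11 measured 400.3 and 406 CPM in WT and 389 and 456 CPM in thraa-/- (0.07, SE 0.106, adjusted p = 0.686), and MYLK 141 and 168 CPM in WT and 141 and 154 CPM in thraa-/- (−0.07, SE 0.118, adjusted p = 0.703). For both genes the genotypes overlapped.

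TAGLN ENSDARG00000033466 measured 83.3 and 87.9 CPM in WT hearts and 105 and 122 CPM in thraa-/- hearts, without overlap (log2 fold change 0.41, SE 0.115, adjusted p = 0.031), and was the 1 gene of the 6 past the adjusted p alone. TAGLN ENSDARG00000045408 measured 215 and 147 CPM in WT and 124 and 139 CPM in thraa-/- (−0.46, adjusted p = 0.127). elnb measured 562 and 293 CPM in WT and 565 and 675 CPM in thraa-/- (0.54, SE 0.395, adjusted p = 0.429). The 2 WT hearts thus differed more from each other in elnb than the genotype means did. Without WT heart replicate 1 elnb was called at 1.08, and without WT heart replicate 2 TAGLN ENSDARG00000045408 was called at −0.72. A p that misses the threshold with 2 hearts a group does not show that the genotypes were alike.

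Of the wider contractile apparatus, a list of 28 tested identifiers that leaves out the 6 genes and holds myosin light chains, non-muscle myosins, tropomyosins, calponins, caldesmons, actinin and related proteins, 9 were called higher and 5 lower in WT at 7 dpi, beside 24.2% and 13.6% of all genes, and 16 higher and 4 lower in thraa+/-, beside 22.4% and 14.1%. The medians were 0.160 in WT, beside 0.218 over all genes, and 1.11 in thraa+/-, beside 0.136. In WT 2 were higher and 6 lower at 8 hpi, beside 16.5% and 12.5% of all genes, and 1 higher and 9 lower at 1 dpi, beside 14.8% and 10.8%. The difference in response at 7 dpi was called higher for 10 of the 28 and lower for 1, beside 6.39% and 6.28%. Between uninjured genotypes 2 were called higher in thraa+/- and 5 lower, beside 5.68% and 5.79%, and the summed level of the list was 16990 and 16610 CPM in WT and 17650 and 17480 CPM in thraa+/-. That sum includes MYL9 ENSDARG00000008030, whose level, given below, was higher in thraa+/- by more than the sum was. CSRP1 ENSDARG00000030980, a LIM protein of the cytoskeleton under 1 CPM on average, had 0 counts in both uninjured thraa+/- libraries, so its fitted change there depends on the prior count and gives no size.

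Among them cald1a ENSDARG00000070314, a caldesmon that binds actin and restrains the motor, rose in both genotypes at 7 dpi, by 2.84 on the log2 scale in WT and 3.84 in thraa+/-. TPM4 ENSDARG00000019128, a tropomyosin that lies along actin filaments, rose by 2.27 and 3.61, and the non-muscle myosins MYH9 ENSDARG00000063295 by 1.82 and 2.87 and MYH9 ENSDARG00000001014 by 1.76 and 2.69. ACTN1 ENSDARG00000007219, which cross-links actin, measured 69.2 and 68.6 CPM in uninjured WT and 21.7 and 23.0 CPM in uninjured thraa+/-. It differed between the uninjured genotypes by −1.62 (adjusted p = 6.68e-18) and in its response at 7 dpi by 2.05 (adjusted p = 1.47e-17). CNN1 ENSDARG00000102398, calponin, a smooth muscle protein that binds actin, measured 7.00 and 7.91 CPM in uninjured WT and 1.83 and 1.58 CPM in uninjured thraa+/-, a difference of −2.12 (adjusted p = 6.76e-06), and differed in its response at 7 dpi by 2.45. Both genes were thus low in uninjured thraa+/- apex, as the transgelins were. The response difference subtracts the uninjured difference, so the 2 values of a gene are not separate evidence.

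2 genes of the list were higher in uninjured thraa+/- apex. MYL9 ENSDARG00000008030, a myosin regulatory light chain, measured 841 and 836 CPM in uninjured WT apex and 1869 and 1864 CPM in uninjured thraa+/- apex, a difference of 1.15 (adjusted p = 4.92e-19), and fell in WT at 7 dpi by 1.83 on the log2 scale. In the whole hearts it was also higher in thraa-/-, by 1.76 (adjusted p = 5.4e-05). smtnb ENSDARG00000059442, a smoothelin, was higher in uninjured thraa+/- apex by 1.70 (adjusted p = 1.64e-20) and in thraa-/- hearts by 0.99 (adjusted p = 0.0299). TPM2 ENSDARG00000104682, a tropomyosin, was lower in uninjured thraa+/- (log2 fold change −1.57), and its difference in response at 7 dpi, 0.81, was not called. In the whole hearts 4 of 29 tested identifiers were called higher and 2 lower, beside 9.66% and 9.54% of all genes, with a median of −0.022, TPM4 ENSDARG00000019128 higher by 1.43 and LMOD1 ENSDARG00000077261, a leiomodin that nucleates actin filaments, at −1.05.

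The elastic fibre list, with 13 tested identifiers for microfibril proteins, fibulins, emilins and lysyl oxidases and without elnb, was higher at 7 dpi for 8 of 13 in each genotype, beside 24.2% of all genes in WT and 22.4% in thraa+/-, and lower for none, with medians of 1.35 in WT and 2.20 in thraa+/-. At 8 hpi in WT 6 of the 13 were called lower and 1 higher, beside 12.5% and 16.5%. From 7 to 15 dpi 8 of the 13 fell in WT and 7 in thraa+/-, beside 15.5% and 16.5%. LOX ENSDARG00000003259, the lysyl oxidase that cross-links elastin, measured 1.70 and 2.81 CPM in uninjured WT apex, 33.3 and 38.5 CPM at 7 dpi in WT and 40.9 and 40.2 CPM at 7 dpi in thraa+/-, and it was already at 30.2 and 32.0 CPM at 3 dpi in WT. mfap2 ENSDARG00000059367, a microfibril protein, measured 2.10 and 0.832 CPM in uninjured WT and 55.1 and 50.4 CPM at 7 dpi. LOXL2 ENSDARG00000044074, another lysyl oxidase, rose by 2.60 on the log2 scale in WT and 3.33 in thraa+/-.

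Between genotypes, 1 of the 13 was called in thraa+/- against WT at 7 dpi, where elnb was lower, beside 6.25% of all genes. It was FBLN1 ENSDARG00000103311, a fibulin, which was lower as well, at −1.27 on the log2 scale (adjusted p = 0.0144), and LOX ENSDARG00000003259 stood at 0.18 (adjusted p = 0.366) and mfap2 ENSDARG00000059367 at −0.03 (adjusted p = 0.931). In the whole hearts 2 of the 13 were called higher in thraa-/- and 4 lower, beside 9.66% and 9.54% of all genes, with loxl2a ENSDARG00000044010 higher by 3.25 and LOXL1 ENSDARG00000054451 at −0.74.

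**Figure D5:**
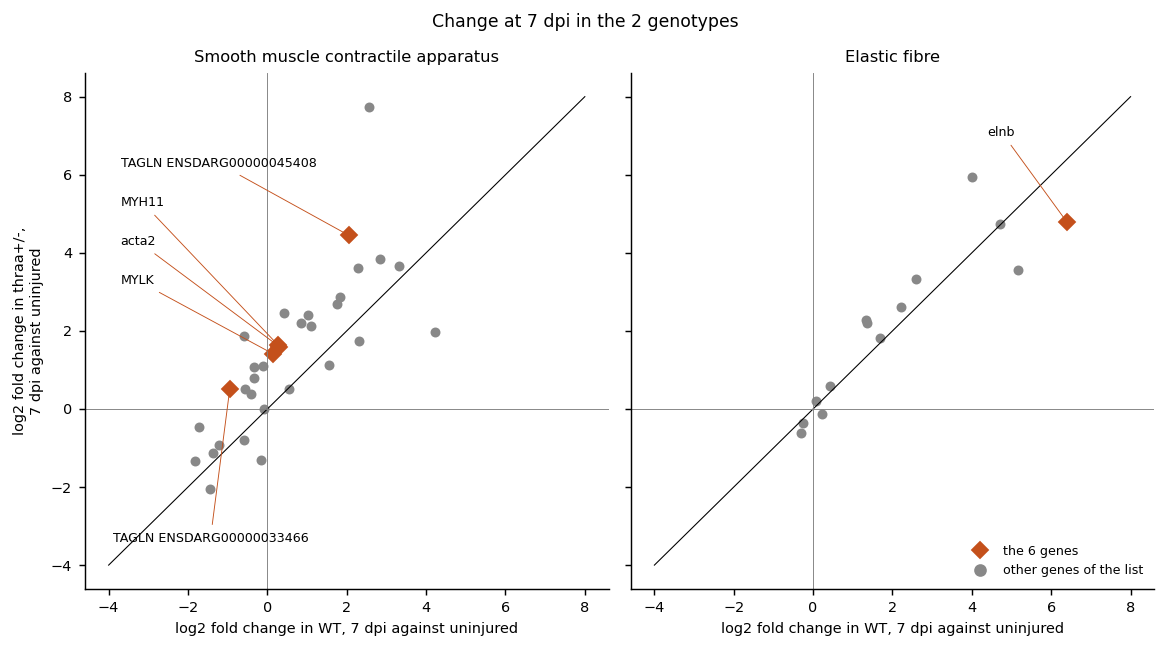
Log2 fold change at 7 dpi against uninjured apex, WT on the x axis and thraa+/- on the y axis, for the tested identifiers of the contractile apparatus and elastic fibre lists, with the 6 genes labelled and a diagonal where both changes are equal. TAGLN ENSDARG00000045408 lies at 2.05 and 4.45, and elnb at 6.39 and 4.80.

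Markers of other cell types moved over the same days, read here beside the shares of all genes called at 7 dpi, 24.2% higher and 13.6% lower in WT and 22.4% and 14.1% in thraa+/-. At 7 dpi all 8 fibroblast and epicardium markers were called higher in WT and 7 of 8 in thraa+/-, and their summed level went from 934 and 954 CPM in uninjured WT to 8528 and 8555 CPM, and from 638 and 603 CPM in uninjured thraa+/- to 8852 and 8784 CPM. At 8 hpi in WT, when acta2, MYLK and TAGLN ENSDARG00000045408 were low, 5 of the 8 were called lower, beside 12.5% of all genes, and their sum was 318 and 297 CPM. Of the mural cell markers 2 of 10 were higher and 1 lower in WT at 7 dpi and 3 higher and 2 lower in thraa+/-, with sums of 577 and 572 CPM in WT and 507 and 494 CPM in thraa+/-. None of the fibroblast or mural markers was at 0 in the uninjured and 7 dpi libraries. The part of either cell type in the changes of the 6 genes was not tested.

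Of the remaining markers, cardiomyocyte genes were lower at 7 dpi for 4 of 6 in WT and 5 of 6 in thraa+/-, endothelial genes lower for 1 of 5 and 2 of 5, leukocyte genes higher for 4 of 5 and 5 of 5, erythrocyte genes higher for 2 of 3 and 3 of 3, and epithelial genes higher for 1 of 4 and 2 of 4. Skeletal muscle markers were higher for 4 of 7 and lower for 3 of 7 in WT, and higher for 4 and lower for 2 of 7 in thraa+/-, and 5 of the 7 were called lower in thraa+/- than in WT at 7 dpi, beside 3.31% of all genes. Their summed level went from 22730 and 22680 CPM in uninjured WT to 4419 and 4482 CPM at 7 dpi and from 16460 and 16170 CPM to 2722 and 2770 CPM in thraa+/-. TNNT3 ENSDARG00000068457, a troponin of fast skeletal muscle chosen for mention after its values were seen, measured below 1 CPM in both uninjured WT libraries, 103 and 109 CPM at 7 dpi in WT and 22.3 and 21.7 CPM at 7 dpi in thraa+/-. It was thus, as elnb was, higher at 7 dpi and lower in thraa+/- than in WT at that time, while the sum of its list was lower at 7 dpi, and its part in the elnb difference was not tested.

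Regulators of smooth muscle genes were counted against the same shares of all genes at 7 dpi, 24.2% higher and 13.6% lower in WT and 22.4% and 14.1% in thraa+/-. Of 17 genes for serum response factor, myocardin-related factors and other smooth muscle regulators, 6 were called higher at 7 dpi in WT and 0 lower, and 6 higher and 2 lower in thraa+/-, with TBX20 ENSDARG00000005150, a cardiac transcription factor, rising by 4.33 in WT and 1.61 in thraa+/- and MRTFA ENSDARG00000075867, a coactivator of serum response factor, rising by 1.69 and 1.94. Of 21 genes of TGF-beta signalling, a driver of contractile and matrix gene expression, 4 were higher and 1 lower in WT and 8 higher and 2 lower in thraa+/-. TGFB2 ENSDARG00000027087, a ligand, rose by 3.42 and 2.56, and INHBA ENSDARG00000012671, an activin subunit, rose by 3.75 in thraa+/-.

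Across the 24 apex libraries, which form 12 groups of 2 and so are not independent, log2 CPM of acta2 and MYLK went together most closely among the 6 genes, with a Pearson correlation of 0.924, followed by acta2 with TAGLN ENSDARG00000045408 at 0.843 and MYH11 with MYLK at 0.830. TAGLN ENSDARG00000033466 had correlations between −0.451 and 0.403 with the other 5. Of 13709 genes considered, those most like acta2 were lama4 at 0.94, a laminin chain of vessel basement membranes, GNG10 at 0.93, MYLK, reep3a and RND3. For TAGLN ENSDARG00000045408 they were hbaa1, an alpha globin, COL1A1, a chain of fibrillar collagen, and cndp1, each at 0.96, then col1a1a and CRABP2 at 0.95.

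For elnb the closest were nbr1a and RBM5 at 0.92, then MXRA8, MEX3B and TNNC2 at 0.91, the last a calcium-binding troponin of fast skeletal muscle. For MYH11 the values were lower, with SHD at 0.87, map3k14a at 0.86, and DZIP1, nupr1b and abca1b at 0.85. For MYLK they were acta2 and BHMT at 0.92, lama4 at 0.91, and GNG10 and si:dkey-238i5.2 at 0.90. TAGLN ENSDARG00000033466 was most like UAP1 at 0.93, PSMB10 and AP2M1 at 0.92, and gig2j and PSMB6 at 0.91, of which PSMB10 and PSMB6 encode proteasome subunits. By Spearman rank correlation the lists moved, except for TAGLN ENSDARG00000033466, which kept all but PSMB6. Of the genes named, only nbr1a and MEX3B stayed for elnb, SHD for MYH11 and cndp1 for TAGLN ENSDARG00000045408. For acta2 GNG10 and MYLK stayed, and for MYLK si:dkey-238i5.2 alone. These correlations describe shared courses over the same libraries and carry no test.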

How the data were processed

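Estimated counts and TPM per gene were deposited as tables made by the authors from paired 150-base reads (Trim Galore 0.6.10, STAR 2.7.9 and RSEM 1.3.3 on GRCz11, per the submitters' notes and the methods). Between 5.15% and 7.24% of the deposited expected counts were not whole, so they were rounded. Counts were fitted with edgeR 4.0.16 (filterByExpr, TMM, robust glmQLFit) in R 4.3.3, the 24 time-course libraries together and the 4 hearts apart. The unit used for levels between genes was the deposited TPM, which had been length-scaled by the authors.

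The 6 genes and all lists were chosen with earlier results of these data known. List genes were named when called in a comparison of the paragraph, at most 6 a list by absolute log2 fold change, with a mean of at least 1 CPM. The 5 genes most like each member were taken by Pearson correlation of log2 CPM with a prior count of 2. Alternatives were DESeq2 1.42.0, total-count scaling, other filters (at least 10 counts in every library, or none beyond 1 count), limma 3.58.1 on log2(TPM + 1) and log2(TPM + 0.1), a replicate block, adjusted p alone, a fit of the compared groups and each library left out. The procedures were tested on simulated data. Differences between replicates exceeded sampling noise in every group (chi-square over degrees of freedom 1.87 to 21.9). No genome sequence was used here, so no coordinates or sequences are given.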

Additional observations from a re-analysis of the deposited data

Results flagged for a closer look

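The change from uninjured apex differed between thraa+/- and WT by the fold threshold and the adjusted p of the interaction term in 16 tests of the 6 genes (edgeR, log2 scale, thraa+/- minus WT, 2 libraries a group). In each, thraa+/- had the more positive change. All 16 share the uninjured libraries of both genotypes. Each value is the difference between genotypes at that time minus the difference in uninjured apex. For the 5 genes other than elnb the uninjured difference lay between −0.92 and −1.75, and the difference at 1 dpi between −0.33 and 0.27.

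For TAGLN ENSDARG00000045408 the difference was 2.50 at 8 hpi (adjusted p = 6.60e-09), 1.42 at 1 dpi (adjusted p = 1.58e-05), 1.43 at 3 dpi (adjusted p = 9.15e-06) and 2.39 at 7 dpi (adjusted p = 3.79e-09). For TAGLN ENSDARG00000033466 it was 1.37 at 8 hpi (adjusted p = 2.83e-15), 1.25 at 1 dpi (adjusted p = 4.25e-14) and 1.46 at 7 dpi (adjusted p = 4.62e-16). For MYLK it was 1.25 at 8 hpi (adjusted p = 6.47e-07), 1.02 at 1 dpi (adjusted p = 1.34e-05), 1.25 at 7 dpi (adjusted p = 3.74e-08) and 1.05 at 15 dpi (adjusted p = 9.32e-06). For MYH11 it was 1.02 at 1 dpi (adjusted p = 5.78e-07), 1.36 at 7 dpi (adjusted p = 2.44e-10) and 1.18 at 15 dpi (adjusted p = 7.14e-08). For acta2 it was 1.19 at 1 dpi (adjusted p = 8.26e-10) and 1.29 at 7 dpi (adjusted p = 5.18e-12).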

How the results depend on the processing

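Of the 63 called tests, DESeq2 kept 63, the replicate block 63, a fit without filter 62, total-count scaling 57, limma on log2(TPM + 0.1) 56 and limma on log2(TPM + 1) 45. A fit of only the compared groups kept 61 of 62 that it tested, and the filter of at least 10 counts in every library 49 of 51, since elnb was not tested there. Leaving out 1 library kept 61 to 63, and none of the 63 changed sign under any alternative run. Counts of called tests moved as follows, and the shares of all genes called under these settings are not given here. With the adjusted p alone they were 24 in WT after resection, 21 in thraa+/- after resection, 22 between genotypes, 18 and 20 between consecutive times in WT and thraa+/-, and 1 in the whole hearts. With limma on log2(TPM + 1) they were 6 in WT, 3 between genotypes and 2 in the hearts, where limma on log2(TPM + 0.1) also gave 2. With total counts they were 18 in thraa+/- and 1 in the hearts, and the filter of 10 counts left 3 between genotypes. Without single libraries the ranges were 12 to 14 in WT, 8 to 10 in thraa+/-, 5 to 8 between genotypes (8 without WT 8 hpi replicate 1), 15 to 20 for the difference in response, 8 to 9 and 10 to 12 between consecutive times in WT and thraa+/-, and 0 to 1 in the hearts.

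Of all 180 tests 27 changed sign under at least 1 alternative, none of them called. Taken relative to the median of all genes, changes under total counts and TMM differed by −0.0184 to 0.0214. The cause of the sign changes under the other alternatives was not tested. Among the sign changes with total counts were TAGLN ENSDARG00000033466 at 1 dpi in WT (−0.08 to 0.51) and 15 dpi in thraa+/- (−0.18 to 0.24), MYLK at 1 dpi in thraa+/- (−0.26 to 0.35) and acta2 at 15 dpi in thraa+/- (−0.13 to 0.28). Of the values given in the text these changed sign. MYLK at 3 dpi in WT, −0.38, was 0.34 with limma on log2(TPM + 0.1), 0.30 on log2(TPM + 1) and 0.42 with total counts. MYH11 in whole hearts, 0.07, was −0.23 with limma on log2(TPM + 0.1), −0.23 on log2(TPM + 1), −0.19 with total counts and −0.0431 to 0.185 when single hearts were left out. MYLK in whole hearts, −0.07, was 0.0521 without WT heart replicate 2. TAGLN ENSDARG00000033466 at 8 hpi in WT, −0.75, was 0.0614 with limma on log2(TPM + 0.1) and 0.0611 on log2(TPM + 1). The replicate numbers gave no sign of pairing, with a median correlation of 0.006 of the replicate differences over 66 pairs of groups (−0.033 to 0.196) and 0.032 in the hearts, and the replicate block left the counts of calls at 12, 10, 5, 16, 9, 11 and 0. With under 10 elnb counts in each library of uninjured, 8 hpi and 1 dpi apex, its changes from uninjured at 8 hpi and 1 dpi had SEs of 0.751 to 1.19 on the log2 scale and were not detectable at this depth.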
